A study of Mus musculus with 6 samples.

Results

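The 10 genes described here make and load major histocompatibility complex (MHC) class I molecules: the heavy chain genes H2-K1 and H2-D1, the light chain gene B2m, the peptide transporter genes Tap1 and Tap2, the tapasin gene Tapbp, the immunoproteasome subunit genes Psmb8, Psmb9 and Psmb10, and the transcriptional activator gene Nlrc5. They were chosen by name with earlier results of these data known, among them the call of Psmb8 and lower values of antigen presentation genes. They are 10 of the 23284 gene symbols counted, and all 10 were among the 13390 genes abundant enough to test. RNA was sequenced in 6 libraries of preSC, mouse cells that the submitters label as a precursor line of SCLC (small cell lung cancer). Cells of all 6 had received a pLKO.1 lentivirus. Controls 1 and 2 had the empty vector (shEmpty), and control 3 had a hairpin without a target (shNS, non-silencing). The shCrebbp group held 1 library for each of 3 hairpins against Crebbp, numbered 1, 2 and 5 and called hairpins 1, 2 and 5 below. The labels give no age, genotype or further treatment, nor do they state that each library is a culture of its own. P-values therefore measure the spread between these libraries, which in the shCrebbp group includes differences between hairpins. The question of the comparison is which genes depend on Crebbp, the gene of CREB-binding protein, a histone acetyltransferase.

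MHC class I molecules carry peptides of the cell's own proteins to its surface, where cytotoxic T cells inspect them. Proteasomes cut the proteins, the TAP transporter moves the peptides into the endoplasmic reticulum, and tapasin helps to fit them onto a heavy chain paired with beta-2 microglobulin. Interferon switches many of these genes on together, partly through NLRC5, which is recruited to their promoters by factors bound there. Small cell lung cancer is known for low surface MHC class I.

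Promoter sequences were available for 8 of the 10 genes from RefSeq (build GRCm38.p6). They are shown because the promoters of the 2 heavy chain genes are much alike and Tap1 and Psmb9 share a single one. That of B2m is shown as the gene that differed from the controls in the other direction, and that of Psmb8 as the gene that passed the test. No link between promoter sequence and direction was tested. The stretches run 5′ to 3′ along the gene (along Tap1 for the interval between genes) and end just before the annotated start site, outside the transcript. H2-K1 has 2 annotated starts, of which the first listed was used. The H2-K1 stretch is chr17:34000348-34000527, minus strand, and that of H2-D1 is chr17:35262914-35263093, plus strand. The B2m stretch is chr2:122147507-122147686, plus strand, and that of Psmb8 is chr17:34198015-34198194, plus strand. The fourth sequence is the whole interval between the start sites of the divergent genes Psmb9 and Tap1, chr17:34187331-34187555, plus strand. Capitals mark 4 motifs, searched on both strands, of which no 2 different motifs overlap here: the kappa-B consensus, which NF-kappa-B binds; TTTCACTT, part of an interferon-stimulated response element; TGACG, the core of a cAMP response element; and CCAAT, the site of nuclear factor Y.
H2-K1: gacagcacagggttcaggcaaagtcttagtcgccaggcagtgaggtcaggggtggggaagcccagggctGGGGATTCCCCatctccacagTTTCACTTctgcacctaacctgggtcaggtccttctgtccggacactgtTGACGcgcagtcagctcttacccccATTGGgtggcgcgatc
H2-D1: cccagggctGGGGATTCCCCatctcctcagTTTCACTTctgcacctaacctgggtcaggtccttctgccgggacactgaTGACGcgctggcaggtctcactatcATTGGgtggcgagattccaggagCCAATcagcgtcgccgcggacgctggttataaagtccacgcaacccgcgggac
B2m: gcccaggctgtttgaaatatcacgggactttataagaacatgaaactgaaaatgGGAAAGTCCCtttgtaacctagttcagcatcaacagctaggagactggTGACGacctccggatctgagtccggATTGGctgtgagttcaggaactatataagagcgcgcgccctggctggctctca
Psmb9 to Tap1: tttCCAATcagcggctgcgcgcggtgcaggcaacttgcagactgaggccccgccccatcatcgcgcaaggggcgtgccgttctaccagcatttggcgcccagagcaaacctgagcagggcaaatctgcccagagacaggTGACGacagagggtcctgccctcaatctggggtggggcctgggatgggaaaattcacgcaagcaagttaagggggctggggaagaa
Psmb8: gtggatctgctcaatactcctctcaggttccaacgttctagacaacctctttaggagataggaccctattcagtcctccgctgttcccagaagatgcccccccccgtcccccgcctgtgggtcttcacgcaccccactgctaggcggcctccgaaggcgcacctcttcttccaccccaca

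Aligned with gaps, the promoter windows of H2-K1 and H2-D1 (250 bases before to 50 after the start) had 211 identical bases in 239 aligned (88.3%). The kappa-B consensus was found in the windows of H2-K1, H2-D1 and B2m (3 of 8, against 8.18% of 27025 promoters), in the heavy chain genes as 2 overlapping matches. TTTCACTT was found in H2-K1 and H2-D1 only (2 of 8, against 1.67%). In both heavy chain genes the kappa-B, TTTCACTT, TGACG and first CCAAT matches lay in the same order and at the same spacing. TGACG was found in the windows of H2-K1, H2-D1, B2m, Tap1 and Psmb9 (5 of 8, against 21% of all promoters). CCAAT was found in these 5 and Tapbp (6 of 8, against 37.9%). For both motifs the Tap1 and Psmb9 matches are the same bases, in the interval these genes share, and are counted for each. With the heavy chain windows so alike, the 8 windows are not independent of each other. The windows of Psmb8 and Psmb10 held none of the 4 motifs. The motifs were chosen after these promoters had been read, so the shares of all promoters are given for scale and test no enrichment. A match is a description of letters in a short window and was not tested as a binding site.

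Gene counts totalled 13622020 to 19804949 reads per library, so 1 CPM (a read count scaled to library size by the trimmed mean of M-values, TMM) stood for 13.6 to 19.6 reads. Crebbp itself stood at 66.2, 69.6 and 69.4 CPM in the 3 controls, against 46.2, 58.3 and 48.9 CPM under hairpins 1, 2 and 5 (log2 fold change -0.42 ± 0.10 (SE), edgeR adjusted p = 0.0999, DESeq2 0.0149), with no overlap between the groups. All 10 neuroendocrine markers were detected, with a summed level of 6836 to 7898 CPM in controls and 5634 to 7472 CPM with hairpins. Leukocytes are rich in MHC class I and immunoproteasome RNA, so the 10 immune markers bear on these genes: Emr1 had no reads in any library, Ptprc had 2 reads in control 2 and none elsewhere, and the summed level (75.6 to 84.3 CPM in controls, 68.4 to 83.8 with hairpins) came mostly from Coro1a. The 7 fibroblast markers summed to 37.4 to 45.8 CPM in the controls and 14.4 to 64.0 in the hairpin libraries, mostly Dcn, with Col3a1 at 0 reads throughout; their part in the results was not tested.

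In control cells the heavy chain transcripts were by far the most abundant of the 10 and Nlrc5 was the least. Levels of different genes are compared per kilobase of annotated exon, in CPM per kb (mean ± SD, n = 3 controls). H2-D1 stood at 122 ± 3.55 and H2-K1 at 106 ± 3.85 CPM per kb. Psmb8 followed at 24.3 ± 1.23, Tapbp at 22.2 ± 1.08, B2m at 15.8 ± 1.14 and Psmb10 at 15.7 ± 0.938 CPM per kb. Tap2 came next, then Tap1 at 6.08 ± 0.335, Psmb9 at 5.93 ± 0.505 and Nlrc5 at 0.201 ± 0.0661 CPM per kb. The control libraries of B2m and Psmb10 overlapped, as did those of Tap1 and Psmb9, so neither of these neighbours can be ordered. With the longest transcript in place of all exons, H2-K1 (165 CPM per kb) stood above H2-D1 (149) and Psmb10 (20.4) above B2m (15.8), so those orders depend on the length used. The light chain transcript was thus scarce beside those of its partners: per kb, B2m was at 0.0698, 0.0640 and 0.0747 of the summed heavy chain level in controls 1, 2 and 3.

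**Figure D1:**
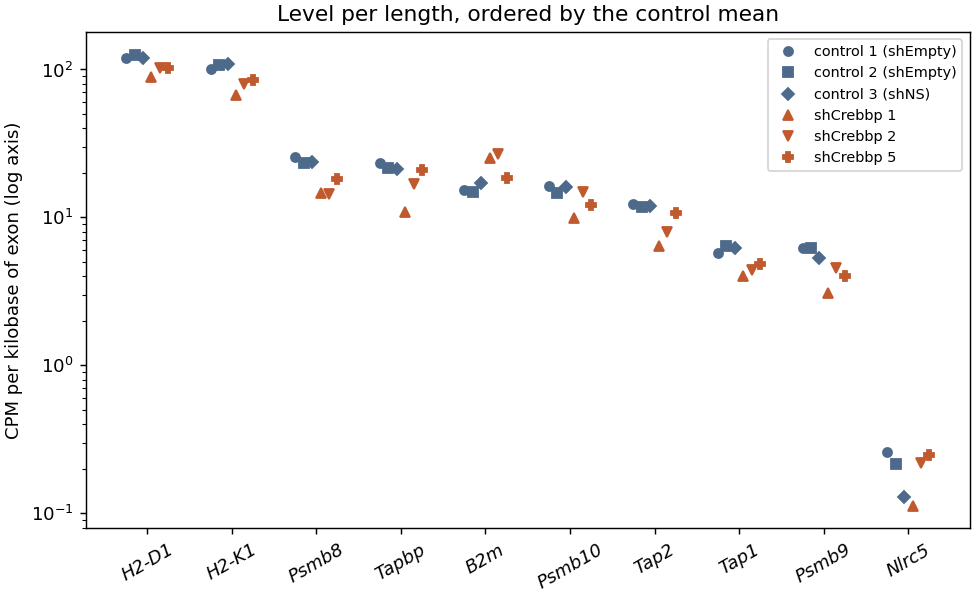
CPM per kilobase of annotated exon (log axis) of the 10 genes in each of the 6 libraries, ordered by the control mean. Blue symbols are the 3 controls and orange symbols the 3 hairpin libraries; the heavy chain genes lie near 100 and Nlrc5 below 0.3.

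Of the 10 genes, Psmb8 alone passed an adjusted p of 0.05 over all tested genes in edgeR, and it was lower with the hairpins; 0.978% of tested genes were called lower and 0.276% higher. By sign 9 of the 10 were lower (46.8% of tested genes) and B2m was higher (53.2%), with a median log2 fold change of -0.45 against 0.01 over all 13390 genes. The 3 hairpin libraries lay wholly below the 3 controls in 7 (H2-K1, H2-D1, Tap1, Tap2, Tapbp, Psmb8 and Psmb9), against 11% of all tested genes, and wholly above them in B2m, against 11.4%. Psmb10 and Nlrc5 overlapped. An unadjusted p under 0.05 was reached by 6 in the lower direction, against 8.46% of all tested genes, and by B2m in the higher direction, against 7.99%. DESeq2 called 5 lower (H2-K1, H2-D1, Tap1, Psmb8 and Psmb9; 3.08% of its tested genes) and B2m higher (2.17%), whereas limma-voom called Psmb8 only, lower (0.956%). For each of the 8 genes whose groups did not overlap, an exact two-sided permutation test over the libraries gave p = 0.1, the smallest that 3 libraries against 3 allow. Because the genes were chosen with such results known, the shares of all tested genes are given for scale and test no enrichment. Bulk RNA cannot tell fewer expressing cells from less RNA per cell.

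**Figure D2:**
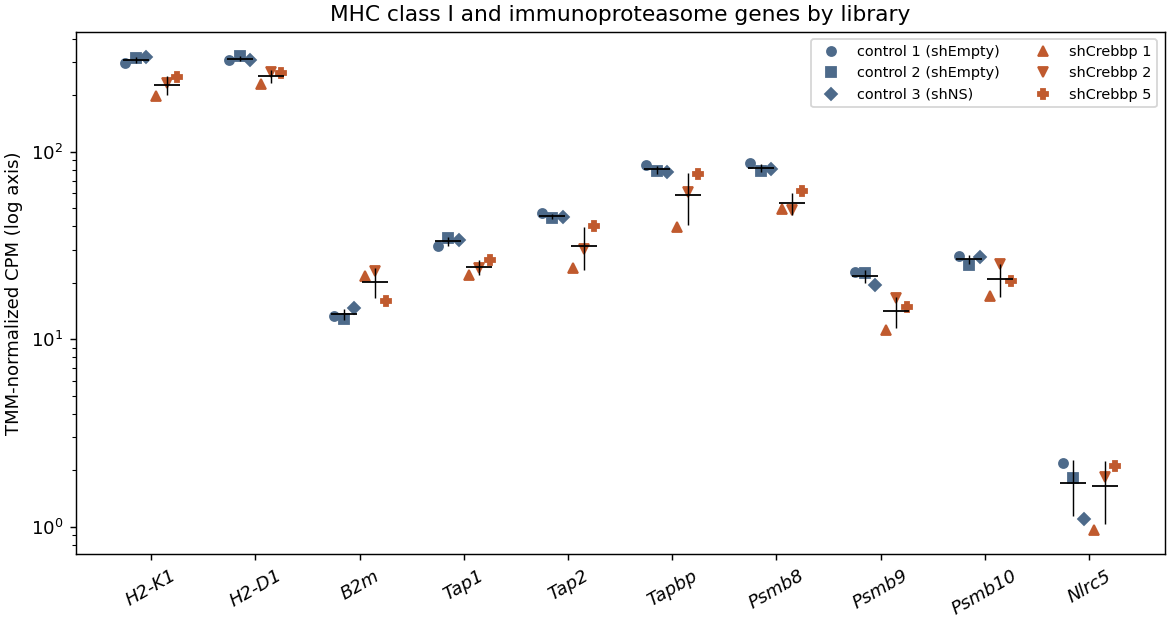
TMM-normalized CPM (log axis) of each gene in each library; horizontal bars are group means and vertical lines the SD over 3 libraries. The orange hairpin symbols lie below the blue control symbols in 7 genes, above them in B2m, and among them in Psmb10 and Nlrc5.

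The heavy chains present the peptide, and both of their genes had lower CPM in every hairpin library than in any control. H2-K1 stood at 297, 314 and 319 CPM in the 3 controls, against 198, 234 and 249 CPM under hairpins 1, 2 and 5. Means were 310.1 ± 11.3 CPM without and 227 ± 26.5 CPM with a Crebbp hairpin (SD, n = 3 each; log2 fold change -0.45 ± 0.10, adjusted p = 0.0784 in edgeR). H2-D1 stood at 308, 324 and 309 CPM in the controls, against 230.3, 266 and 264 CPM under the hairpins. All 3 hairpins thus lay below the controls in both genes, hairpin 1 lowest. The means of H2-D1 were 314 ± 9.16 CPM without and 253 ± 19.9 CPM with a Crebbp hairpin (-0.31 ± 0.08, adjusted p = 0.121). Per kb the ratio of H2-K1 to H2-D1 was 0.848, 0.851 and 0.905 in controls and 0.754, 0.772 and 0.830 with the hairpins, with no overlap between the groups. H2-K1 passed in DESeq2 (adjusted p = 0.00218) and, once hairpin 5 was left out, in edgeR (adjusted p = 0.0454), and H2-D1 in DESeq2 alone of the tools and omissions tried (0.0200). Class I genes resemble each other: 9.63% of the 50-base words of the H2-K1 transcripts and 12.8% of those of H2-D1 also occur in transcripts of other genes, such as H2-Q10, H2-Q1 and each other, and reads that align to several places were not counted.

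B2m encodes beta-2 microglobulin, the light chain without which a heavy chain does not reach the surface stably, and it was the exception to the direction of the others. It stood at 13.2, 12.8 and 14.7 CPM in controls (259, 210 and 201 reads) and at 21.8, 23.1 and 16.0 CPM with hairpins 1, 2 and 5 (297, 324 and 235 reads). Each hairpin library was above each control, hairpins 1 and 2 by a wide margin and hairpin 5 by a small one. The means were 13.6 ± 0.978 CPM without and 20.3 ± 3.78 CPM with a Crebbp hairpin (log2 fold change 0.58 ± 0.16, adjusted p = 0.128 in edgeR). DESeq2 called it higher (adjusted p = 0.0472), and so did edgeR once hairpin 5 was left out (0.72 on the log2 scale, adjusted p = 0.0421), where 1.05% of tested genes were called higher. Per kb, B2m relative to the summed heavy chains was 0.162, 0.147 and 0.0993 with hairpins 1, 2 and 5, above all 3 controls given earlier. With B2m above and both heavy chain genes below every control, this ratio had to separate the groups and adds no further evidence. No 50-base word of the B2m transcripts occurs in another gene, and no other annotated gene overlaps its exons.

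The transporter subunits Tap1 and Tap2 and the loading chaperone tapasin stood below all 3 controls under every hairpin, by amounts that varied between the libraries. Tap1 stood at 31.3, 34.8 and 33.9 CPM in the controls, against 22.1, 24.1 and 26.5 CPM under hairpins 1, 2 and 5 (log2 fold change -0.46 ± 0.11, edgeR adjusted p = 0.0915, DESeq2 0.0169). Tap2 stood at 46.8, 44.1 and 45.1 CPM in the controls, against 24.1, 30.3 and 40.2 CPM under the hairpins (-0.52 ± 0.17, adjusted p = 0.179). For Tap2 the hairpin libraries were spread, with hairpin 5 just below the controls, and without hairpin 5 the gene passed in edgeR (adjusted p = 0.0359). Tapbp stood at 84.9, 78.8 and 77.6 CPM in the controls, against 39.7, 60.8 and 76.4 CPM under the hairpins (-0.45 ± 0.20, adjusted p = 0.323). Hairpin 1 held the lowest Tapbp level, and hairpin 5 lay just under the lowest control. The annotation overlaps Tapbp with other genes, chiefly Zbtb22 on the same strand and Gm19412, over 29.0% of its exon bases, and Tap2 with Gm15821 and Gm20496 over 18.5%, so some reads of these genes may have been set aside as ambiguous.

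Psmb8, Psmb9 and Psmb10 encode the catalytic subunits that take the places of PSMB5, PSMB6 and PSMB7 in the immunoproteasome, which favours peptides that fit class I molecules. Psmb8 stood at 87.1, 79.3 and 80.7 CPM in the 3 controls, against 49.2, 48.7 and 61.7 CPM under hairpins 1, 2 and 5. It fell 1.55-fold, from 82.3 ± 4.16 to 53.2 ± 7.38 CPM (log2 fold change -0.63 ± 0.11, adjusted p = 0.0404 in edgeR), with all 3 hairpins well below the controls. The call was lost when a single library was left out in 4 of 6 cases: the adjusted p lay between 0.0782 and 0.227 without control 1, 2 or 3 or hairpin 2, and it passed without hairpin 1 or 5. The share of all tested genes called lower was 0% without control 1 or 2, 0.332% without control 3, and 1.75%, 0.601% and 1.83% without hairpins 1, 2 and 5. With all 6 libraries, edgeR called Psmb8 under each other scaling and filter too, where it called 0.971% (RLE), 1.05% (upper quartile), 0.984% (no filter), 1.03% (1 CPM in 3 libraries) and 0.986% (non-robust) of genes lower. Psmb9, transcribed from the interval it shares with Tap1, stood at 22.8, 22.7 and 19.6 CPM in the controls, against 11.2, 16.5 and 14.8 CPM under the hairpins (-0.61 ± 0.16, edgeR adjusted p = 0.112, DESeq2 0.0218). Per kb, the ratio of Psmb9 to Tap1 overlapped between the groups (1.09, 0.975 and 0.864 in controls, 0.761, 1.03 and 0.832 with the hairpins). Psmb10 stood at 27.9, 24.9 and 27.3 CPM in the controls, against 17.0, 25.3 and 20.6 CPM under the hairpins (-0.35 ± 0.15, adjusted p = 0.304). Hairpin 2 reached the range of the controls there, so the groups of Psmb10 overlapped. The antisense model Gm20496 covers 14.7% of the exon bases of Psmb8, and whether counting used strand is not given in the sources used here.

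For the constitutive subunits that these replace, the groups overlapped in all 3 genes. Psmb5 stood at 143 ± 13.3 CPM in the controls, against 154 ± 16.4 CPM under the hairpins (log2 fold change 0.12 ± 0.11), Psmb6 at 270.3 ± 19.2 CPM without and 263 ± 10.5 CPM with a Crebbp hairpin (-0.04 ± 0.08), and Psmb7 at 249 ± 4.45 CPM without and 269 ± 26.7 CPM with a Crebbp hairpin (0.11 ± 0.09), with edgeR adjusted p between 0.588 and 0.885. Within each library the immunoproteasome subunit was set against its constitutive counterpart, per kb. Psmb8 to Psmb5 was 0.177, 0.151 and 0.137 in controls and 0.0806, 0.0783 and 0.121 with hairpins 1, 2 and 5. Psmb9 to Psmb6 was 0.0468, 0.0424 and 0.0348 in controls and 0.0209, 0.0328 and 0.0294 with the hairpins. Psmb10 to Psmb7 was 0.230, 0.200 and 0.217 in controls and 0.129, 0.170 and 0.168 with the hairpins. In all 3 pairs the hairpin libraries lay wholly below the controls, and in every library the constitutive transcript was the more abundant. For Psmb10 this held for the ratio only, since its own CPM overlapped between the groups. Psmb7, the divisor there, was highest under hairpin 2, at 298 CPM against 244, 249 and 253 CPM in the controls. How often ratios of other gene pairs separate the groups was not computed.

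PA28 is the ring-shaped activator that interferon induces along with the immunoproteasome. Its alpha gene Psme1 stood at 238 ± 9.24 CPM in the controls, against 189 ± 16.4 CPM under the hairpins (-0.33 ± 0.09, edgeR adjusted p = 0.113, DESeq2 0.0233). Its beta gene Psme2 stood at 135 ± 4.94 CPM without and 104 ± 8.47 CPM with a Crebbp hairpin (-0.38 ± 0.09, edgeR adjusted p = 0.0826, DESeq2 0.00765). Neither overlapped between groups, and edgeR called both lower without hairpin 5, which took 1.83% of all tested genes lower. Among all 10 activator and assembly genes edgeR and limma-voom called 0 and DESeq2 called 2 lower. In edgeR 3 were lower at an unadjusted p under 0.05, against 8.46% of all tested genes. The third was Psmg4, an assembly chaperone gene (-0.30 ± 0.12, edgeR adjusted p = 0.265). Of the 12 tested genes for other 20S core subunits, edgeR, DESeq2 and limma-voom called 0, 0 had an unadjusted p under 0.05, and the median log2 fold change was 0.07; Psmb4 (0.16 ± 0.09) and Psma5 (0.15 ± 0.08) had the smallest p. Of the 21 genes of the 19S regulatory particle, which unfolds and feeds in the substrate, the same tools called 0, and the median was 0.02. There 1 gene was higher at an unadjusted p under 0.05 in edgeR (Psmc6, 0.19 ± 0.08), against 7.99% of all tested genes. Psmd6 came next at 0.21 ± 0.09. The difference between these sets and the interferon-inducible genes was not tested.

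**Figure D3:**
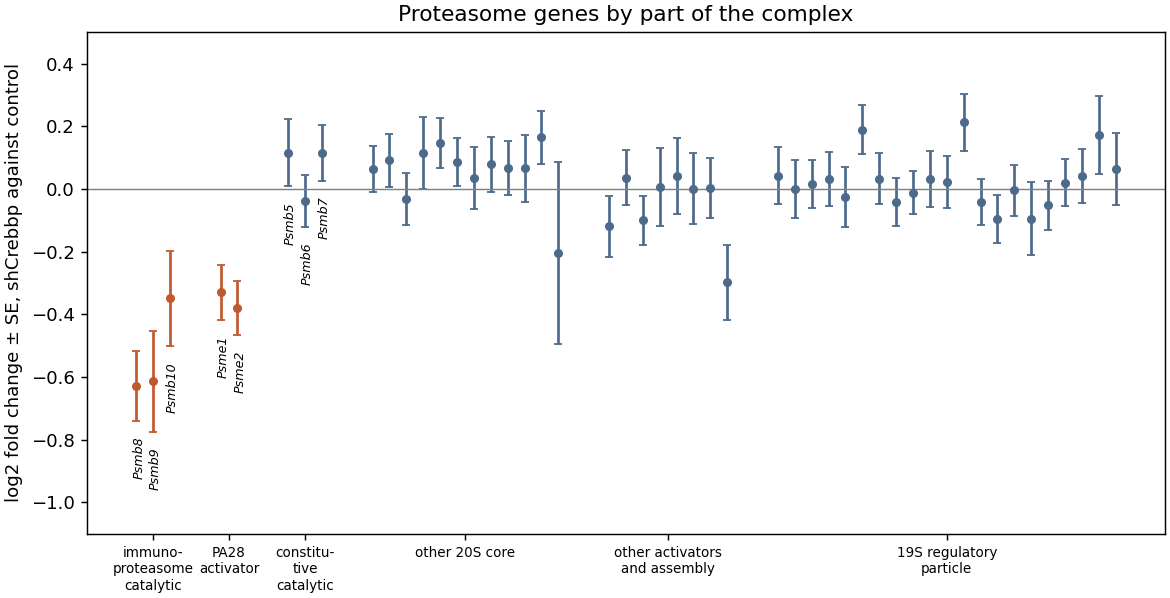
Log2 fold change of shCrebbp against control (edgeR, bars are SE) for tested proteasome genes, grouped by part of the complex. The 5 interferon-inducible genes in orange lie between -0.63 and -0.33; most others in blue lie within 0.2 of 0.

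Nlrc5 encodes the activator that drives most of these genes, and its transcript had the fewest reads of the 10. It had 43, 30 and 15 reads in controls 1, 2 and 3 and 13, 26 and 31 with hairpins 1, 2 and 5. In CPM it stood at 2.20, 1.83 and 1.09 in controls and 0.955, 1.85 and 2.11 with the hairpins, so that control 3 and hairpin 1 were low, the other libraries were high, and the groups overlapped. The log2 fold change was -0.07 ± 0.39 (adjusted p = 0.961), and its sign turned when control 1 or hairpin 1 was left out. With an SE of this size, a moderate difference in Nlrc5 was not detectable.

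The factors that hold NLRC5 on the promoter were listed with others that act on class I genes. Among these 21 tested genes edgeR, DESeq2 and limma-voom called 0. At an unadjusted p under 0.05 in edgeR, 4 were lower and 0 higher, against 8.46% and 7.99% of all tested genes. The median log2 fold change was -0.06. Rfx5, a subunit of the RFX complex that binds the promoters of MHC genes, stood at 59.0, 59.3 and 51.6 CPM in the controls, against 42.0, 36.4 and 49.9 CPM under the hairpins (-0.41 ± 0.13, adjusted p = 0.171). Stat3, a signal transducer of cytokine receptors, stood at 274 ± 42.5 CPM without and 210.1 ± 21.6 CPM with a Crebbp hairpin (-0.39 ± 0.13, adjusted p = 0.193). Hairpin libraries lay below the controls in both. Irf1, an interferon-induced activator of class I genes, had a log2 fold change of -0.16 ± 0.13, and its groups overlapped. Ciita, the class II counterpart of Nlrc5, stood at 1.01 ± 0.272 CPM without and 0.709 ± 0.500 CPM with a Crebbp hairpin.

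The interferon pathway upstream was mixed. Of 17 tested genes for receptors and signalling, edgeR and limma-voom called 0, and DESeq2 called 1 in each direction. At an unadjusted p under 0.05 in edgeR, 2 were lower and 1 higher, against 8.46% and 7.99% of all tested genes. Jak1, the kinase shared by the receptors for type I and type II interferon, stood at 56.0, 53.8 and 47.7 CPM in the controls, against 99.3, 109.8 and 70.5 CPM under hairpins 1, 2 and 5. Its log2 fold change of 0.83 ± 0.16 was opposite in sign to most class I genes and did not pass in edgeR (adjusted p = 0.0552), but did in DESeq2 (0.000213) and, without the filter on low counts or without hairpin 5, in edgeR too. Ifih1, the double-stranded RNA sensor MDA5, stood at 28.6 ± 1.69 CPM without and 18.6 ± 3.96 CPM with a Crebbp hairpin (-0.62 ± 0.16, edgeR adjusted p = 0.106, DESeq2 0.0179), and edgeR called it lower without hairpin 5. Ifnb1 had no reads in any library and Ifng at most 1, where a count of 0 allows up to 3 reads, or 0.153 to 0.220 CPM.

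The proteins that share the loading step with tapasin are general chaperones of the endoplasmic reticulum that serve many other proteins. Calr, calreticulin, stood at 628, 612 and 632 CPM in the controls, against 548, 524 and 534 CPM under the hairpins (-0.22 ± 0.07, edgeR adjusted p = 0.166, DESeq2 0.0387), lower in every hairpin library. Pdia3, the disulphide isomerase ERp57, had a log2 fold change of -0.27 ± 0.09, Canx, calnexin, of -0.17 ± 0.09, and Erap1, which trims peptides to length, of -0.39 ± 0.16; their edgeR adjusted p lay between 0.201 and 0.406. Among all 17 loading and trimming genes edgeR and limma-voom called 0, DESeq2 called 1 lower, and the median was -0.06. At an unadjusted p under 0.05 in edgeR, 3 were lower and 1 higher, against 8.46% and 7.99% of all tested genes.

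Of the other class I heavy chain and class I-like genes, 30 were among the counted symbols and 14 passed the filter on low counts. Of those 14, edgeR and limma-voom called 0, and DESeq2 called 2 lower and 1 higher. At an unadjusted p under 0.05 in edgeR, 4 were lower and 1 higher, against 8.46% and 7.99% of all tested genes. H2-Q2 stood at 11.3 ± 1.20 CPM in the controls, against 5.78 ± 1.09 CPM under the hairpins (-0.97 ± 0.19, edgeR adjusted p = 0.0559, DESeq2 0.000935), and edgeR called it lower without the filter on low counts. H2-T23, the mouse Qa-1 gene whose product engages an inhibitory receptor of natural killer cells, is named here after its values were seen: it stood at 94.7, 80.8 and 68.9 CPM in the controls, against 37.9, 57.6 and 64.0 CPM under the hairpins (-0.62 ± 0.20, edgeR adjusted p = 0.173, DESeq2 0.0438). Cd1d1, which presents lipids rather than peptides, was the gene in the other direction, at 1.99, 2.87 and 3.14 CPM in the controls, against 8.23, 6.70 and 3.67 CPM under the hairpins (1.22 ± 0.34, edgeR adjusted p = 0.126, DESeq2 0.0259), and edgeR called it higher without hairpin 5. The Q region genes have near-identical copies, and H2-Q7 (at most 1 read per library) and H2-Q9 (0 reads) cannot be judged where reads that align to several places were set aside.

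The hairpins differed in how far these genes lay from the controls. With hairpin 1 the median log2 ratio to the control mean over the 10 genes was -0.68, with hairpin 2 -0.39 and with hairpin 5 -0.28, while the controls lay between -0.01 and 0.06. Over all tested genes these medians were 0.00, 0.00 and 0.00. Hairpin 1 was the farthest of the hairpins from the control mean in 8 of 10 genes and hairpin 5 the nearest in 6. How often this holds over all tested genes was not computed, so the order is not shown to be particular to these genes. Apart from the sparsely counted Nlrc5, Tapbp varied most widely between hairpins, at -1.02, -0.40 and -0.07 for hairpins 1, 2 and 5, and H2-D1 least, at -0.45, -0.24 and -0.25. The remaining Crebbp transcript was lowest with hairpin 1 (46.2 CPM), next with hairpin 5 (48.9 CPM) and highest with hairpin 2 (58.3 CPM). Each hairpin had 1 library, so differences between hairpins, and any relation of these genes to the Crebbp level, were not tested.

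**Figure D4:**
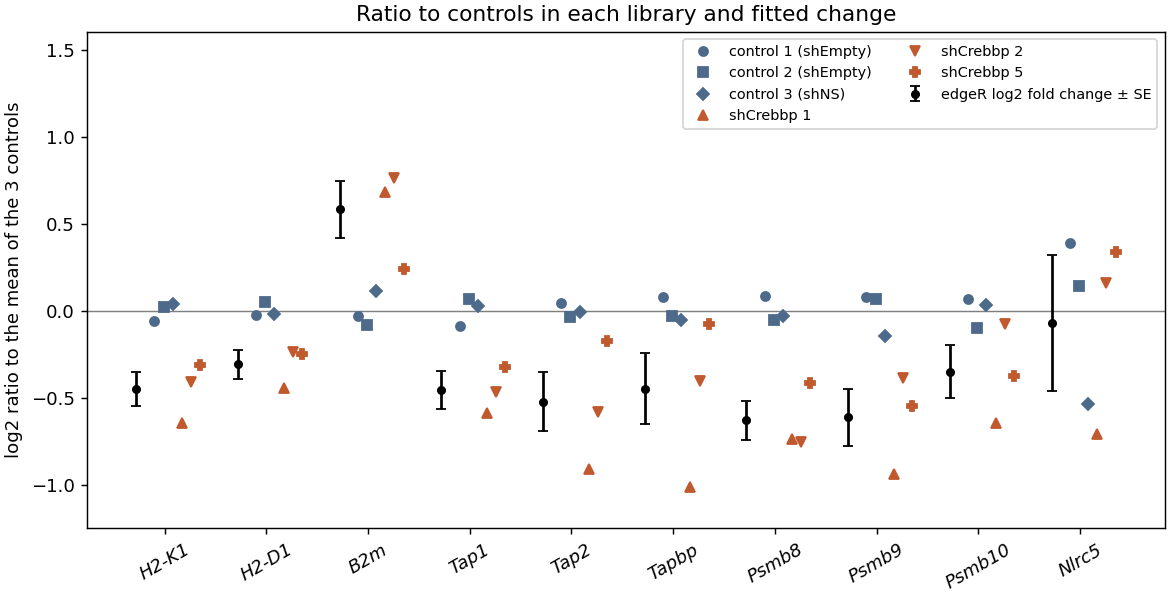
Log2 ratio of each library to the mean of the 3 controls for each gene, beside the edgeR log2 fold change with its SE (black). Hairpin 1 (upward triangles) reaches -1.02 in Tapbp, and B2m is the gene with all 3 hairpins above 0.

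Set among all tested genes, the 10 spanned most of the range of expression, from Nlrc5 at about 1 to H2-D1 near 8 in average log2 CPM. Their fold changes were moderate, between -0.63 (Psmb8) and 0.58 (B2m) on the log2 scale, and 168 of 13390 genes (1.25%) were called in all. Ranked by p over all tested genes, Psmb8 was number 148, H2-K1 301, Tap1 393, Psmb9 591, H2-D1 648 and B2m 702, followed by Tap2 at 1063, Psmb10 at 2220, Tapbp at 2386 and Nlrc5 at 12001.

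**Figure D5:**
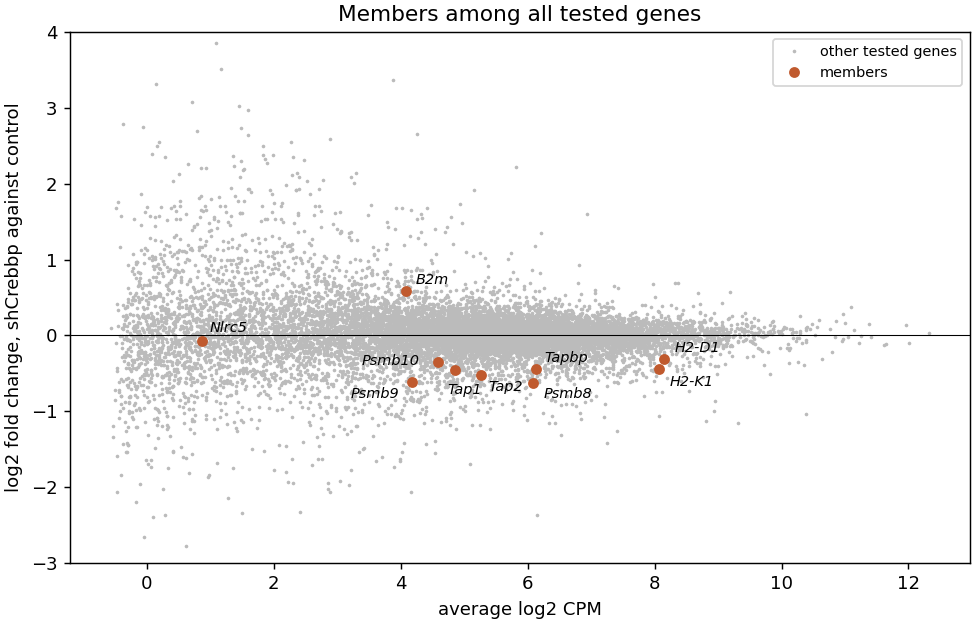
Log2 fold change against average log2 CPM for all 13390 tested genes (grey) and the 10 members (orange). Of the members 8 lie between -0.63 and -0.31, Nlrc5 at -0.07 and B2m at 0.58.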

How the data were processed

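Per the submitters' processing notes, the software included TopHat2 2.0.12 and HTSeq 0.6.1, with bcl2fastq 1.8.2 and build mm9. Per the labels' protocols, polyadenylated RNA was captured before library preparation. What the authors deposited is raw counts, 1 table of gene symbols for each library; the sources used here do not give the annotation, the strand setting or the overlap rule. The 5 summary lines of each table (24.8% to 28.9% of reads) were left out. Counts of all genes were fitted with edgeR 4.0.16 (R 4.3.3; TMM, filterByExpr, robust quasi-likelihood test, group as the only term), with Benjamini-Hochberg adjustment over all tested genes and a threshold of 0.05. The pipeline was tested on simulated data. Log2 CPM uses a prior count of 2, and ± is the SD of CPM over 3 libraries or the SE of a log2 fold change. Alternatives were DESeq2 1.42.0, limma-voom (limma 3.58.1), other scalings and filters, and leaving out each library. Exon lengths, overlaps and shared transcript words come from GENCODE M21 and promoters from RefSeq, both of GRCm38, so no coordinate of the counts is given. Motifs were chosen after the promoters had been read.

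The members and gene lists were chosen with earlier results of these data known, and the call of Psmb8 and the lower values of antigen presentation genes were among them. Named are all 10 members, Crebbp, fixed genes of the proteasome, the loading complex and the regulators, in each other list its called genes or, with none called, the 2 genes of smallest p, and the 5 genes most like the members. Of the listed genes, 4 symbols were not in the files under those names; 1 of them is there as E330016A19Rik and was not analysed here. Single values of 2 listed genes are not reported here.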

Additional observations from a re-analysis of the deposited data

How the results depend on the processing

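The number of genes called over the whole table moved from 168 to 733 with DESeq2, and lay between 0 and 389 (0 without control 1 or 2, where 1332 and 1238 had an unadjusted p under 0.05) when 1 library was left out. Among the 10 members, DESeq2 called 6 in place of 1, and leaving out 1 library gave between 0 and 4: 0 without control 1, 2 or 3 or without hairpin 2, 1 without hairpin 1, and 4 without hairpin 5 (H2-K1, Tap2 and Psmb8 lower, B2m higher). In edgeR with all 6 libraries, the other scalings, filters and the non-robust fit called Psmb8 alone, with an adjusted p between 0.0219 and 0.0405 (limma-voom included). Of 130 recomputed fold changes of members, 116 kept their sign and side of the threshold, 8 newly passed, 4 no longer passed and 2 changed sign; the latter were both of Nlrc5, at 0.16 without control 1 and 0.19 without hairpin 1, with a range of -0.30 to 0.19 over the omissions. Leaving out a library gives fewer samples, and the cause of the other shifts was not tested. The count of members whose groups did not overlap was 8 under each of the 3 scalings tried. Levels per length moved with the longest transcript by more than 1 SD in 8 members. The longest transcript is never longer than all exons together, so these levels could only move upward. No paired analysis was possible because the control numbers are in deposit order and the hairpin numbers name hairpins. Nlrc5 had 13 to 43 reads per library, the fewest of the members.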

Other observations

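Genes of MHC class II presentation were nearly silent in these cells. Of 11 listed genes 10 did not pass the filter on low counts, and H2-DMa, which helps to load class II molecules, was the exception, at 1.87 ± 0.283 CPM in the controls, against 1.96 ± 0.235 CPM under the hairpins (log2 fold change 0.06 ± 0.27). Cd74, the invariant chain, had 3 reads in each control and 0 in each hairpin library, which is at the limit of detection, so no fold is given. Among 16 counted ligands of natural killer receptors and immune checkpoints 5 could be tested, and edgeR and limma-voom called 0. In edgeR 1 was lower at an unadjusted p under 0.05, against 8.46% of all tested genes, and DESeq2 called 1 lower. That gene was Cd274, which encodes the checkpoint ligand PD-L1. It stood at 12.3, 11.6 and 11.8 CPM in the controls, against 5.88, 9.12 and 6.33 CPM under hairpins 1, 2 and 5 (-0.74 ± 0.19, edgeR adjusted p = 0.110, DESeq2 0.0217), lower in every hairpin library. Pvrl2, nectin-2, had a log2 fold change of -0.16 ± 0.09. The stress-induced NKG2D ligand genes Raet1a to Raet1e and Ulbp1 had no reads in any library.

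Polycomb repressive complex 2, a histone methyltransferase known to silence MHC class I genes in several cancers, gave 0 calls among 11 genes in edgeR, DESeq2 and limma-voom, and 0 at an unadjusted p under 0.05 in edgeR. Without hairpin 5 edgeR called 1 of them lower, Phf19, named here after its values were seen. The catalytic subunit genes had log2 fold changes of opposite sign, -0.18 ± 0.09 for Ezh1 and 0.17 ± 0.08 for Ezh2 (adjusted p = 0.342 and 0.341), and neither overlapped between groups.

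The 5 genes outside the lists whose log2 CPM over the 6 libraries was most correlated with the mean of the 10 members were B3gat2, Golga7b, Serpinb8, Arhgap18 and Sspn, with Pearson correlations between 0.996 and 0.999. These are the highest of 11391 candidates over only 6 libraries that share 2 groups, and are given as a description. None of the 5 passed in edgeR (adjusted p between 0.160 and 0.260), and B3gat2 alone passed in DESeq2 (adjusted p = 0.0493).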
